A study of Mus musculus with 4 samples.

Results

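The chemokine receptor genes Ccr1, Ccr2, Ccr3, Ccr4, Ccr6, Ccr8, Ccr9, Cxcr5 and Cxcr6 were examined for Trim33 occupancy in T helper 17 (Th17) cells. A peak belonged to a receptor gene when its summit, the position of its highest signal, lay in the RefSeq body of the gene (mm10) or within 10 kb of it. This stretch is called the locus below. The rule found 20 peaks of 27050 in the list, and 8 of the 9 genes held at least 1. The 9 genes were named by their role in helper subsets and not by a measured value, although earlier results of these data were known when they were chosen.

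The series holds 2 Trim33 chromatin immunoprecipitation (ChIP-seq) libraries and 2 input DNA libraries. All 4 came from primary mouse cells of the C57BL/6 strain, started as naive CD4+ T cells of spleen and lymph nodes. They were cultured on plates coated with anti-CD3 and anti-CD28 in medium with IL-6 and TGF-b and with antibodies that block IL-4 and IFN-g, which drives them to the Th17 state. No genotype beyond the strain, age, sex or time in culture is given, and nothing says whether the libraries came from separate animals. The ChIP antibody was raised against Trim33 (Bethyl), and the input libraries had none. The peaks were made from merged replicates, so each carries 1 value, no spread between cultures and no known depth. All results are therefore descriptions of 1 list, with no test. A peak list holds no expression, so the cell label could not be checked by marker levels. As loci, 7 of 8 Th17 marker genes, 3 of 8 B cell markers and 3 of 8 myeloid markers held a summit, against 53.9% of all protein-coding genes. With 50 kb instead of 10 kb on each side the counts were 8, 5 and 6 of 8, against 71.5%. These counts of loci do not check the cell label either.

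Chemokine receptors are G protein coupled receptors that steer leukocytes along gradients of small secreted proteins, the chemokines. Helper T cell subsets carry different sets of them, so that each subset enters other tissues: Ccr6 is typical of Th17 cells, Ccr3, Ccr4 and Ccr8 are linked to Th2 cells, and Cxcr5 brings T follicular helper cells into B cell follicles. Ccr9 guides cells to the small intestine. Trim33 is a chromatin-bound ubiquitin ligase of the TRIM family that works with SMAD proteins downstream of TGF-beta.

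Sequence under a peak could be read at the starts of Ccr4 and Cxcr6, whose RefSeq promoter windows (250 bases before to 50 after the start) a peak overlapped. They are shown because, of the 8 receptor genes with such a window, these 2 had a peak over it. Cxcr5 has no window, so its start was not examined. The Ccr3 start is shown for contrast, because its window held the same AP-1 motif as Ccr4 but no peak. The Ccr4 stretch (chr9:114496573-114496794, minus strand) runs from 250 to 29 bases before the start. The Cxcr6 stretch (chr9:123806425-123806476, plus strand) covers the 52 bases before the start. The Ccr3 stretch (chr9:124021797-124021863, plus strand) runs from 174 to 108 bases before the start. All are from RefSeq, build GRCm38.p6, written 5′ to 3′, and capitals mark matches on either strand to the AP-1, SMAD or RUNX motifs spelled out below (E-boxes are left in lower case).
Ccr4: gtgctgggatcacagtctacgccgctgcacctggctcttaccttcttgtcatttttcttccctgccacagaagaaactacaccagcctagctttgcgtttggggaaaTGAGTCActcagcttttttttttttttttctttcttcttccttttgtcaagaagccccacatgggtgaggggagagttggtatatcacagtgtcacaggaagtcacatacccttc
Cxcr6: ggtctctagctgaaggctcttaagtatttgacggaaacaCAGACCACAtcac
Ccr3: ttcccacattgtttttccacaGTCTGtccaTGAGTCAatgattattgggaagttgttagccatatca

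In the Ccr4 stretch the capitals are an AP-1 motif, TGAGTCA, which begins 143 bases before the start. Its centre was 9 bp from the summit of the peak. In the Cxcr6 stretch the capitals are the SMAD motif CAGAC joined by 2 shared bases to ACCACA, the reverse complement of the RUNX motif TGTGGT. They begin 13 and 10 bases before the start, and the summit lay 49 and 46 bp from their centres. Another CAGAC, in the same peak and promoter window but past the stretch shown, begins at base 14 of the transcript and lay nearer to the summit, at 23 bp. In Ccr3 the AP-1 motif begins 144 bases before the start and GTCTG, the reverse complement of the SMAD motif, 153 bases before it.

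Most of the receptor loci held Trim33 summits. A summit lay in 8 of 9 receptor loci, against 11796 of 21887 protein-coding loci (53.9%). Since 8 of the 9 genes lie on chromosome 9, that chromosome was counted alone: 7 of the 8 receptor genes had a summit there, against 56.8% of its 1201 protein-coding genes. The length of the loci was similar, with a median of 33.9 kb for the receptors and 37.2 kb for all genes. The receptor loci had a median of 2 summits, against 1 for all loci and 2 for loci with any. With 20 summits in 284 kb, they held 0.703 summits per 10 kb, against 0.184 over the summed length of all loci, which overlap and include very long genes.

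The receptor peaks were close to the rest of the list in height. The authors' fold enrichment, the signal at the summit over its background, had a median of 6.80 over the 20 peaks (quartiles 5.19 and 8.31, range 3.62 to 14.7). Over all peaks the median was 6.00 (quartiles 4.87 and 7.76), and 12 of the 20 receptor peaks lay above that median. The median −log10 q differed more, at 14.9 for the receptor peaks and 11.2 for all peaks. At least 10-fold enrichment was reached by 2 of 20 receptor peaks (10.0%) and by 11.1% of all peaks. By gene, 2 of 9 receptor genes held such a peak, against 10.1% of all protein-coding genes. The receptor peaks had a median width of 234 bp (138 to 503 bp), and all peaks 227 bp.

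**Figure D1:**
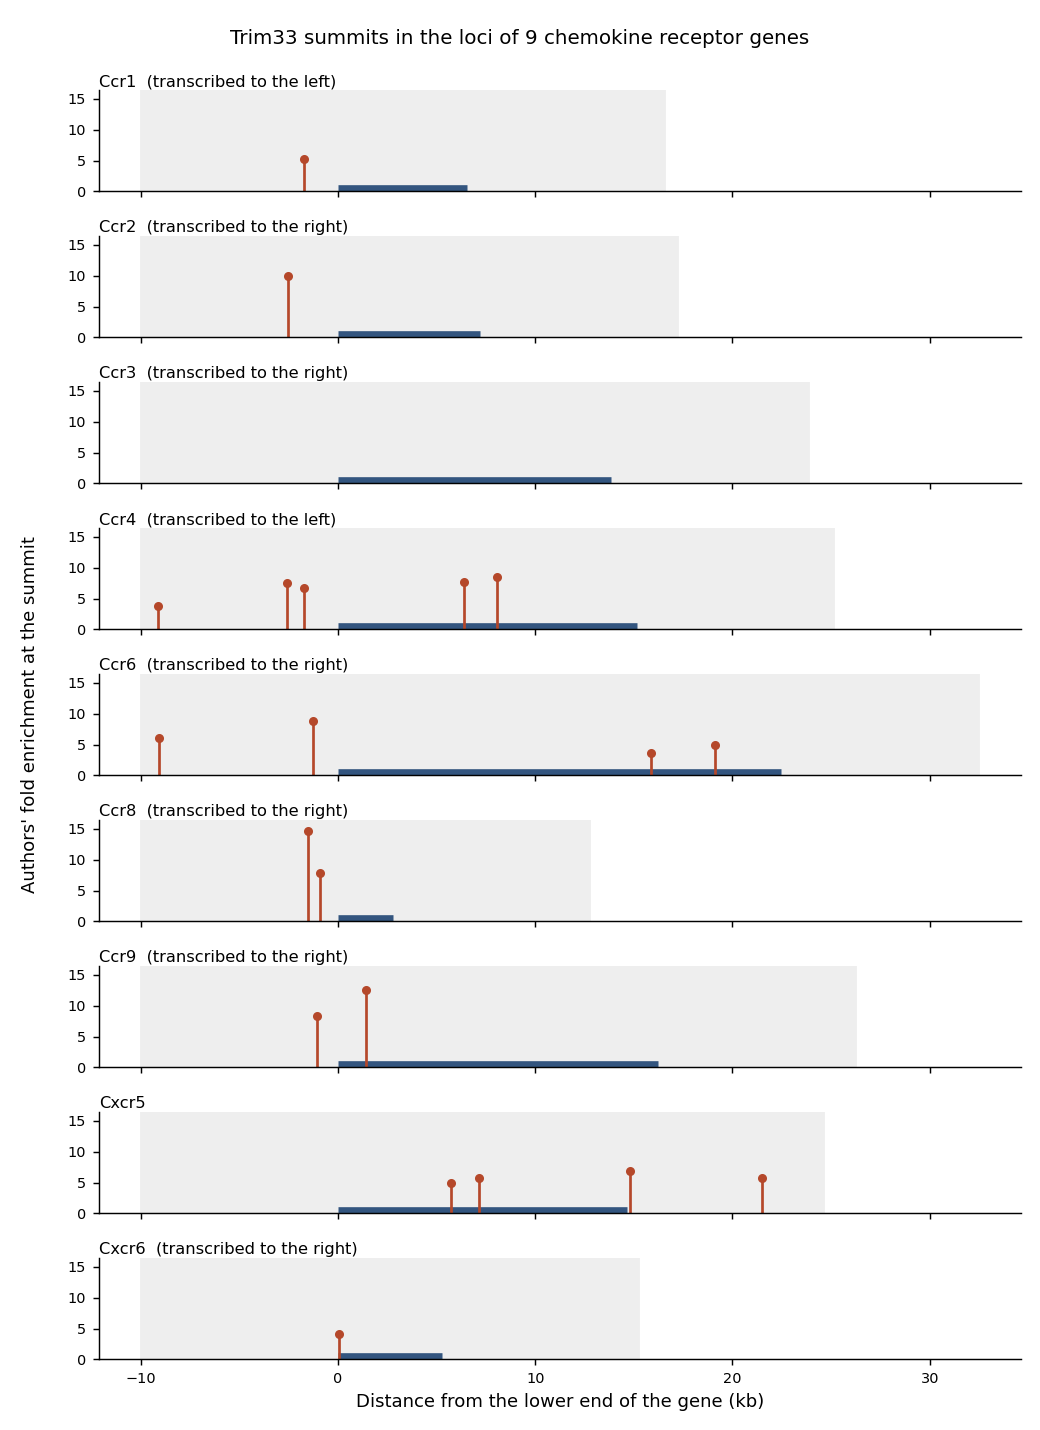
Trim33 summits in the 9 receptor loci. The x axis is the distance in kb from the lower-coordinate end of each gene, the blue bar is the gene body, the grey area is the locus with 10 kb on each side, and each red point is 1 summit at the height of the authors' fold enrichment. Ccr8 and Ccr9 hold the highest peaks (14.7 and 12.6), Ccr4 the most summits (5) and Ccr3 none.

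Ccr6, the receptor for the chemokine Ccl20 and the one most used to define Th17 cells, had 4 summits in its locus on chromosome 17 (8236041 to 8258519). The peak nearest its start was the highest of the 4, at 8.86-fold with the summit 1289 bp before the RefSeq start at 8236043. Of all peaks, 16.6% had a higher fold. A second peak before the gene had 6.07-fold enrichment at 9089 bp from the start. The other summits lay inside the gene, with 3.62-fold and 4.997-fold enrichment at 9390 and 12605 bp past the later of its annotated starts (8242526). These last peaks were low in the list: 95.1% and 72.1% of all peaks were higher. Ccr6 thus had its higher signal before the gene and its lower signal in the body, and neither of its promoter windows lay under a peak.

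Ccr4 binds Ccl17 and Ccl22 and is used in homing to skin by Th2, regulatory and Th17 cells. Its locus on chromosome 9 (114490316 to 114505476, minus strand) held 5 summits, the most among the 9 receptors. Of protein-coding loci, 3.10% had more. The peak over the promoter (114496573 to 114496832) had 7.69-fold enrichment, with its summit 149 bp before the start. The highest Ccr4 peak, of 8.43-fold, lay 1828 bp before the start and inside the longest annotated body. The remaining 3 lay beyond the 3′ end, at 1737, 2557 and 9126 bp from it, with 6.78-fold, 7.48-fold and 3.81-fold enrichment. The last of these was nearer to an end of Glb1, which encodes a lysosomal beta-galactosidase, at 6811 bp. Apart from that weak outer peak, the values in and below Ccr4 ran from 6.78 to 8.43.

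Ccr8, the receptor for Ccl1 on Th2 and regulatory T cells, had the highest peak of the group. This peak, on chromosome 9 at 120090376 to 120090751, had 14.7-fold enrichment (−log10 q of 47.4) and ranked 597 of 27050. Its summit was 1519 bp before the start. A second, wider peak of 503 bp stood between it and the gene, with 7.91-fold enrichment at 910 bp before the start. No summit lay in the short body of Ccr8 (2.77 kb) or past its 3′ end within 10 kb. Among protein-coding genes, 2.06% had a higher peak in their locus.

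Ccr3, which binds eotaxins and is best known from eosinophils and Th2 cells, was the gene with no summit. The nearest summits were 57435 bp below and 36843 bp above the gene, which left a stretch of 108 kb without any. Such stretches are common: of 1563 intervals between neighbouring summits on chromosome 9, 216 were at least as long, while the median was 17.7 kb. The absence says that no peak was listed, since the threshold and the depth of the libraries are unknown.

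Ccr1 and Ccr2 are inflammatory receptors, of Ccl3 and Ccl5 and of Ccl2, and are found on monocytes and on effector T cells. Ccr2 had 1 summit, of 9.93-fold enrichment, at 2784 bp before the RefSeq start (124102183) and 2519 bp below the gene body. Ccr1 had 1 summit of 5.25-fold, which lay on the other side, 1736 bp past the 3′ end. Of all peaks 11.3% were higher than the Ccr2 peak and 66.2% higher than the Ccr1 peak.

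Ccr9, the receptor for the gut chemokine Ccl25, had 2 summits around its start on chromosome 9. The peak inside the gene (123768517 to 123768754) had 12.6-fold enrichment at 1423 bp after the start, and its −log10 q of 63.5 was the highest of the 20. The other had 8.27-fold enrichment at 1040 bp before the start. Both summits also lay in Gm17021, a long non-coding RNA gene that spans the Ccr9 start, so the peaks cannot be given to either gene alone.

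Cxcr6, the receptor for Cxcl16 on effector and tissue T cells, had 1 summit, 38 bp after its start, with 4.20-fold enrichment. It was the closest to a RefSeq start among the receptors with a promoter window, and 88.0% of all peaks had a higher fold. Cxcr6 lies within Fyco1, which encodes an adaptor of autophagosome transport, so this position is also in the body of Fyco1.

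Cxcr5, which follows Cxcl13 into follicles, had 4 summits in its locus on chromosome 9 (44511787 to 44526444). The highest had 6.82-fold enrichment at 137 bp outside its upper end. Another stood 6854 bp outside that end with 5.67-fold enrichment, and those inside the gene had 4.88-fold and 5.67-fold. The inner summits were nearer to an end of Bcl9l, a beta-catenin cofactor gene that overlaps the lower end of Cxcr5, at 5593 and 7023 bp. The 4 values ran from 4.88 to 6.82, with the highest at the gene end.

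By the position of the summits, 8 lay inside a receptor gene and 12 outside. Within 1000 bp of an end or RefSeq start of their gene lay 4, at Ccr4, Ccr8, Cxcr5 and Cxcr6. As genes this is 4 of 9, against 36.2% of protein-coding genes. Another 7 summits lay between 1000 and 2000 bp away. A promoter window was overlapped by a peak in 2 of 8 receptor genes with a window (all but Cxcr5), against 31.0% of 17492 genes. The peaks of 10-fold or more, at Ccr8 and Ccr9, had their summits 1519 and 1423 bp from the start. At the 10 kb limit of the rule, the outermost summits kept were those at 9126 bp (Ccr4, 3.81-fold) and 9087 bp (Ccr6, 6.07-fold). The first left out was at 11226 bp from Ccr6 with 3.47-fold enrichment.

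The receptor starts were poor in CpG, the dinucleotide that marks many promoters. The 9 windows of 8 receptor genes had a median GC content of 44.3% (38.0% to 54.0%) and a median of 2 CpG, against 52.7% and 7 in 32851 windows of all genes. Windows of protein-coding genes under a Trim33 peak had a median of 64.2% and 25 CpG, and those without a peak 53.0% and 7. The 2 receptor windows under a peak lay below both medians: Ccr4 had 46.3% GC and 3 CpG, and Cxcr6 44.3% and 3. The spread around these medians was not computed. The CpG-richest receptor window, the later start of Ccr6 with 10 CpG, had no peak.

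Motif matches in these windows were counted on both strands as a description of their letters. AP-1 (TGACTCA or TGAGTCA) was found in 2 of 9 windows, at Ccr3 and Ccr4, against 5.20% of all windows. The SMAD motif CAGAC was found in 6 of 9, against 49.6%. The RUNX motif TGTGGT was found in 3 (16.8% of all windows) and the PU.1-type ETS motif GAGGAA in 3 (28.3%). The STAT motif TTCNNNGAA was found in 1 window (8.30%) and the ROR motif AGGTCA in 1 (16.3%), both at the first start of Ccr6. The IRF motif GAAANNGAA was found at Ccr2 alone (8.56%). The E-box CANNTG was found in all 9 (72.3%). Of the windows with AP-1, Ccr4 had a peak on the motif and Ccr3 had none. The sequence under the other 18 peaks was not used here.

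Of the receptors, 5 lie in a cluster on chromosome 9, from Ccr9 through Cxcr6, Ccr1 and Ccr3 to Ccr2. From the locus of Ccr9 to that of Ccr2 (123757211 to 124119140, 362 kb) there were 24 summits, of which 5 belonged to receptor loci by the 10 kb rule. The stretch from 40 to 10 kb below Ccr1 was picked after its values were seen. It held 11 summits within 17.9 kb, from 37801 to 19859 bp below the gene, near the non-coding gene Gm51701. These were modest, 3.11-fold to 7.32-fold with a median of 5.87. The highest peak of the cluster had 15.5-fold enrichment (124079887 to 124080396, rank 468). It lay between Ccr3 and Ccr2, at 21837 bp below Ccr2, and thus outside both loci. No summit lay between the upper ends of Ccr1 and Ccr3, a stretch of 63.0 kb that includes Ccr1l1.

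**Figure D2:**
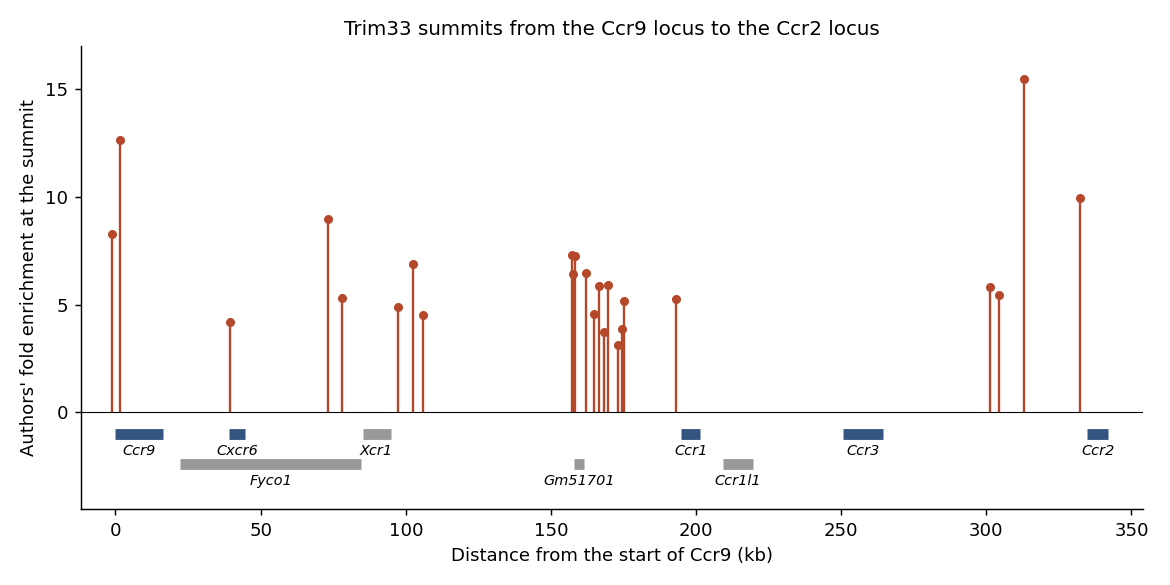
Summits in the receptor cluster of chromosome 9. The x axis is the distance in kb from the start of Ccr9, each red point is 1 of 24 summits at the height of the authors' fold enrichment, and bars below mark gene bodies (blue for the receptors described, grey for the other protein-coding genes and Gm51701). A group of 11 summits stands below Ccr1, none lie around Ccr3, and the highest peak (15.5) lies between Ccr3 and Ccr2.

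A list of 14 other chemokine receptor genes, which is not the whole rest of the family, held summits in 9 loci (64.3%, against 53.9% of all protein-coding loci). None of the 14 reached 10-fold, against 10.1% of all protein-coding genes. In a list of 14 this is little below that share, so it does not set these genes apart. Their loci had a median of 28.5 kb, against 33.9 kb for the 9 receptors. Ccr7, which leads cells to lymph nodes, was highest at 9.46-fold with 5 summits, followed by Cx3cr1 (7.55-fold) and Xcr1 (6.86-fold). Ackr1 and Ackr2, scavenging receptors that do not signal through G proteins, had no summit. Among genes with a summit, the median of the highest fold was 8.64 in the 9 receptors, 6.25 in the other 14 and 7.03 in all protein-coding genes. Both lists were fixed with earlier results known, and the 14 can include receptors of helper subsets. The medians therefore do not set receptors with such a role against receptors without one. Xcr1 and Ccr1l1 lie in the same cluster as 5 of the receptors, and 3 summits near Xcr1 are among the 24 counted there.

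Of 19 listed chemokine genes that encode ligands of the 9 receptors, 8 held a summit (42.1%), against 53.9% of all genes. This was the lowest share among the lists of the chemokine system. The ligand loci were shorter, with a median of 24.1 kb against 37.2 kb for all genes, and the part of length in this share was not tested. With peaks at or above the median fold 6 of the 19 held a summit, against 35.8% of all genes. With the gene body alone 2 did, against 33.0%. Ccl17, a ligand of Ccr4, was highest at 12.7-fold, followed by Ccl20, the ligand of Ccr6, at 9.79-fold with 2 summits, and Ccl28 at 7.54-fold. Ccl1, the ligand of Ccr8, and Ccl11, a ligand of Ccr3, had no summit. Ccr4 and Ccr6 held summits as well, but so did 8 of the 9 receptor loci. A summit at both a receptor and its ligand therefore says little about the pair. Ccr8 held summits while Ccl1 did not. A link between the peaks of receptors and ligands was not tested.

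Genes that pass on or end chemokine receptor signals had a summit in 23 of 24 loci, against 53.9% of all protein-coding loci. Elmo1, a Rac activator in migration, had 21 summits up to 17.2-fold, Grk5, a receptor kinase, 11 up to 15.2-fold and Rgs3, a regulator of G protein signalling, 7 up to 11.1-fold. Rgs18 had none. These loci were longer, with a median of 42.6 kb against 33.9 kb for the receptors and 37.2 kb for all genes. Those of Elmo1 and Grk5 spanned 538 and 226 kb, and the part of locus length in the share of loci with a summit was not tested. Other migration receptors and adhesion genes of T cells held a summit in 15 of 18 loci, against the same 53.9%. Itgal and Itgb2, the chains of the integrin LFA-1, reached 21.9-fold and 13.1-fold, and Itgae, whose product binds E-cadherin on epithelium, 12.9-fold. Cd44 and Gpr174 had none.

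**Figure D3:**
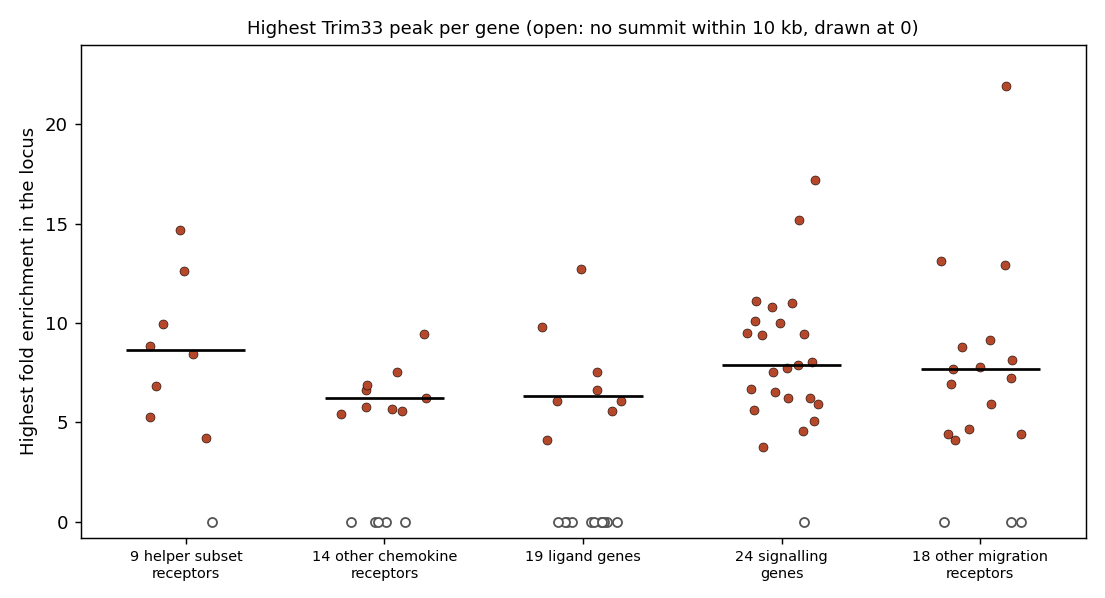
Highest fold enrichment in the locus of each gene, for the 9 receptors and 4 other lists. Each point is 1 gene, filled where a summit lay in the locus and open at 0 where none did, spread sideways only to be seen, and the line is the median of genes with a summit. The receptors with a summit run from 4.20 to 14.7 with a median of 8.64. The 14 listed other chemokine receptors stay below 10, which in so short a list is little below the 10.1% share of all protein-coding genes.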

How the data were processed

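The peak list was deposited by the authors as 1 table of peaks from merged Trim33 replicates, on mm10. MACS2 (2.1.1.20160309), Bowtie (1.2.1.1) and Trim Galore (0.3.7) are named in the submitters' processing notes. Their settings, the threshold and the control are not given in the sources used. The deposited fold enrichment is a ratio of summit signal to background, and the deposited −log10 q is that of the summit. The deposited score restates the −log10 q and was not used. Merging favours sites strong in the summed reads.

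Genes were 21887 protein-coding entries of a RefSeq table (GRCm38.p6), and starts, strands and promoter windows came from RefSeq windows of 300 bases, present for 8 of the 9 receptor genes. Coordinates are counted from 1. Summits per locus, distances, motif matches and base composition were counted with Python 3.11.15, pandas 2.3.3 and numpy 2.4.6, and the counting was tested on simulated summits. The members, gene lists, motifs and naming rule (all 9 receptors, and of other lists the 3 highest genes and up to 2 without a summit) were chosen with earlier results of these data known. Genes that overlap a receptor, or lie near it or in its cluster, were named besides. Alternatives changed the flank, peak set, overlap and window. Libraries were not compared, since the list is merged.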

Additional observations from a re-analysis of the deposited data

How the results depend on the processing

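Counting a peak by any base or by at least 50% of its length in the locus gave 8 receptor genes, 20 peaks and a median fold of 6.80, as counting its summit did. With the gene body alone, 5 receptor genes held 8 summits with a median fold of 5.33, and 33.0% of protein-coding genes (7220) had one. With 50 kb on each side, all 9 held a summit and there were 59 summits with a median of 5.78, against 71.5% of genes. Peaks at or above the median fold left 6 receptor genes with 12 summits (median 8.09), against 7829 genes (35.8%), and those at or above the median −log10 q left 7 with 13 (median 7.91), against 7838 genes. Summits within 2500 bp of an end or start were found at 7 receptor genes (40.2% of protein-coding genes), against 4 with 1000 bp (36.2%) and 3 with 500 bp (33.6%). With gene ends alone, an alternative chosen after seeing the data, there were 3 (33.4%). In the gene body alone, a summit was found in 4 of the other chemokine receptors, 2 of the ligands and 1 of the myeloid markers. With 50 kb there were 5 of the B cell and 6 of the myeloid markers. At or above the median fold 5 other chemokine receptors were left, and at or above the median −log10 q 4 ligands. By construction, these sets hold fewer peaks or another stretch of sequence. No paired analysis was possible because the peaks were called on merged replicates.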
